A study of Arabidopsis thaliana with 12 samples.

Results

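The response of whole wild-type leaves to the plant hormone abscisic acid (ABA) was described from 4 of the 12 RNA sequencing libraries of the series, chosen by their labels: 2 libraries from leaves that received ABA and 2 from leaves that received the vehicle. The plants were Arabidopsis thaliana of the accession Col-0, 5 to 6 weeks old, grown under 12 h of light per day at 22 °C. The rosettes were sprayed with 50 µM ABA, or with ethanol vehicle as the control, and RNA was taken 4 h later. The remaining 8 libraries, 4 from wild-type guard cell preparations (isolated epidermal fragments, extracted with another kit) and 4 from leaves of the abf1/2/3/4 mutant (with mutations in the transcription factor genes ABF1 to ABF4), had the same 2 treatments and served the fit and the comparisons at the end. Each group held 2 biological replicates, and the 4 wild-type leaf libraries held 37571130 and 42933997 counts at control and 32807333 and 47116819 counts with ABA.

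ABA accumulates in plants short of water. It binds receptors of the PYR/PYL family, which then hold back type 2C protein phosphatases and so free SnRK2 protein kinases to phosphorylate transcription factors and channels. The hormone is known for closing stomata, slowing growth and bringing up proteins that protect cells from drying. The transcription factors of the ABF family bind DNA elements with the core letters ACGTG, called ABA-response elements.

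Values are normalised read counts (cpm), given for control replicates 1 and 2 and then for ABA replicates 1 and 2. They are not divided by gene length, so they compare a gene across libraries and not genes with each other. Differences were tested with edgeR (quasi-likelihood F-test), and those with a Benjamini-Hochberg adjusted p under 0.05, over the 22341 genes tested, count as called. "Rose" and "fell" are used only for called genes. At this threshold 61.1% of all tested genes passed, with ABA raising 27.5% and lowering 33.7%, and 61.43% of the called genes changed by less than 2-fold. Both ABA libraries lay above both controls in 36.1% of the tested genes and below them in 44.8%. The count of called members of a list therefore has to be read against these shares, and the list's median log2 fold change against the median over all genes, -0.08. The share called and at least 2-fold higher was 11.5%, and 12.0% were called and at least 2-fold lower. Most genes named below were chosen in part for having no overlap between the libraries of the groups, so that separation is not a result for them. With total-count scaling in place of TMM factors that overall median shifted by -0.13, and with RLE scaling by 0.07, so changes of that size depend on the scaling. Where a list is said to hold no call in a direction, no member reached an unadjusted p under 0.05 in that direction and DESeq2 called none either, except for PAD4 in the salicylic acid list, lower at an unadjusted p only. RNA was measured from whole leaves, in which fewer cells of a type and less RNA per cell cannot be told apart.

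The sequences just upstream of genes with very large responses are shown first, because the ABA-response core occurred there at different rates in risen and in fallen genes. Each sequence is the 250 bases before the annotated start of the gene, in the direction of transcription, from RefSeq's TAIR10.1 assembly. Capitals mark matches to ACGTG or, on the other strand, CACGT. LEA7 (AT1G52690, window chr1:19619474-19619723, plus strand), a late embryogenesis abundant protein, HAI2 (AT1G07430, chr1:2282829-2283078, minus strand), a phosphatase of the ABA pathway, and SWEET4 (AT3G28007, chr3:10409978-10410227, minus strand), a sugar transporter, all rose and have 4 matches each. HAI1 (AT5G59220, chr5:23896940-23897189, minus strand), a phosphatase closely related to HAI2, rose and has none. EXPA8 (AT2G40610, chr2:16950706-16950955, minus strand), an expansin, and PYL6 (AT2G40330, chr2:16846195-16846444, minus strand), an ABA receptor, fell and have none. The examples do not stand for all named genes. No other named gene has as many as 4 matches. GolS2, LTP3 and P5CS1, described below, rose strongly and have none, and AT4G38860 fell and has 1. None of the 6 windows shares bases with another annotated gene.
LEA7: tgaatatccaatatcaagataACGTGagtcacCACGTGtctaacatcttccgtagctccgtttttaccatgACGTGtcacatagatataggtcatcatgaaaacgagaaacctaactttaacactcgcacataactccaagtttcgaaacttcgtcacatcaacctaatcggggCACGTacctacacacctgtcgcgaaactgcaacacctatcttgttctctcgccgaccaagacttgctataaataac
HAI2: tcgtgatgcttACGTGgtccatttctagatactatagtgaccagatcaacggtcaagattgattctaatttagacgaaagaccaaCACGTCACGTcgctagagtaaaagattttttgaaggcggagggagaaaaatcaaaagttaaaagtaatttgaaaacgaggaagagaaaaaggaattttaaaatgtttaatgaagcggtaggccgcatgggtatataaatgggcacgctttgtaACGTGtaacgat
SWEET4: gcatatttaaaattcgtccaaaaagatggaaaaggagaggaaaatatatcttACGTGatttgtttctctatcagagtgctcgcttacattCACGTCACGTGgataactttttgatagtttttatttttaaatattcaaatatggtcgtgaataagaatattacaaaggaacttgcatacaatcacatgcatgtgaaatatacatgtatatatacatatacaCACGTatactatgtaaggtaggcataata
HAI1: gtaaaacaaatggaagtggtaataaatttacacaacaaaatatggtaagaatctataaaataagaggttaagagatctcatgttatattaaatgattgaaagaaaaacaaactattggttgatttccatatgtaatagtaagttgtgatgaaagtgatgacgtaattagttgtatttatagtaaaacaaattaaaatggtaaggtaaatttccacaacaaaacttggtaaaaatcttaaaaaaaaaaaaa
EXPA8: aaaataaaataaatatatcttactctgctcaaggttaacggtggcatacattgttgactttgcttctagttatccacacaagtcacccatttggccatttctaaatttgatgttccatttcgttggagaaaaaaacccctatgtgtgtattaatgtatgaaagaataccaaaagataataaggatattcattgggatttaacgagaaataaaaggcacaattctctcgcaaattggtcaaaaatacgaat
PYL6: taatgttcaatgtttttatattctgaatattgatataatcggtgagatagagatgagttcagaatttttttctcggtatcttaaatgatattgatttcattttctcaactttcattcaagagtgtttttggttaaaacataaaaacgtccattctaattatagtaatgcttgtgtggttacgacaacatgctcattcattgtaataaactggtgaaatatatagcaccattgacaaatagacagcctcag

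In the LEA7 window the matches begin 229, 218, 179 and 76 bases before the annotated gene start, and the second of them is the palindrome CACGTG. Over all tested protein-coding genes, 4786 of 20346 windows (23.52%) held at least 1 ACGTG core. The share was 48.67% of 526 windows for genes called at least 8-fold higher, 36.51% of 1835 for genes 2-fold to 8-fold higher and 28.37% of 3377 for genes higher by less than 2-fold. Of 7567 genes not called 21.22% had a match, and among called genes that were lower the share was 18.42% below 2-fold, 18.64% from 2-fold to 8-fold and 15.9% at 8-fold or more. Windows with 2 or more matches made up 24.52% of the genes at least 8-fold higher and 0.4184% of those at least 8-fold lower, against 5.52% of all. In the list of late embryogenesis abundant, dehydrin and cold-regulated proteins 22 of 30 windows held the core, and in the circadian clock list 12 of 16. The list of cuticular wax and lipid transfer, most of whose genes rose, had 5 of 21 (23.81%), near the share of all genes. Shares well above that of all genes also occurred in lists without a rise, with 7 of 13 windows for the photosystem II core, 9 of 23 for photosystem I and electron transport and 3 of 6 for plastid ribosomal proteins, and in the antenna list with 8 of 20. A match describes letters in the window and was not tested as a binding site.

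**Figure D1:**
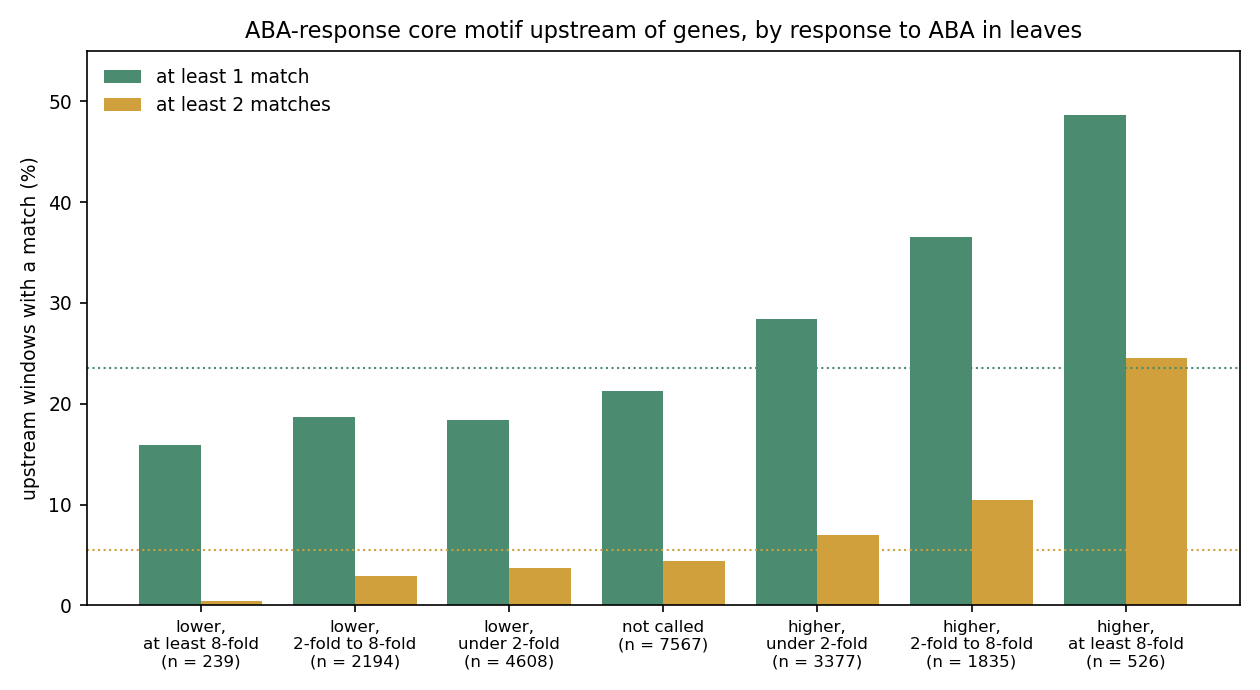
Share of 250-base upstream windows with at least 1 (green) or at least 2 (yellow) ACGTG cores on either strand, in percent, for genes grouped by their response to ABA in wild-type leaves. Dotted lines give the shares over all tested protein-coding genes, 23.52% and 5.52%, and the bars stand highest, at 48.67% and 24.52%, for genes at least 8-fold higher.

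Photosynthesis genes mostly fell or did not pass the test, and the steps differed in how far they moved. Of 21 genes of the Calvin cycle, which fixes carbon dioxide, 19 fell and 1 rose, with a median log2 fold change of -0.80. Of 21 genes of chlorophyll synthesis 20 fell and none rose, with a median of -1.01. The photosystem lists moved less: 8 of 13 photosystem II core genes fell (median -0.24), 15 of 23 genes of photosystem I and electron transport fell (median -0.27), and 9 of 20 light-harvesting antenna genes fell while 2 rose (median -0.24). These lists hold nuclear genes only.

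Rubisco, the enzyme that fixes carbon dioxide, has small subunits made from several near-identical nuclear genes, whose reads the counting may have divided unevenly. RBCS1A (AT1G67090) had 13356 and 13878 cpm at control and 8826 and 7379 cpm with ABA, and RBCS1B (AT5G38430) had 1661 and 1592 cpm at control and 179 and 155 cpm with ABA. Both ABA libraries lay below both control libraries in each gene, but the log2 fold changes were -0.75 (SE 0.11, adjusted p = 1.09e-04) for RBCS1A and -3.29 (SE 0.13, adjusted p = 4.85e-09) for RBCS1B. RBCS2B (AT5G38420) lay between them at -1.48 (SE 0.10, adjusted p = 3.40e-07), from 2792 and 2765 cpm to 1056 and 937 cpm. Rubisco activase, RCA (AT2G39730), which frees Rubisco of bound inhibitory sugars, had 6849 and 6942 cpm at control and 3384 and 2962 cpm with ABA (log2 fold change -1.12, SE 0.09, adjusted p = 1.21e-06). CP12-2 (AT3G62410), a small protein that ties 2 Calvin cycle enzymes into an inactive complex, was the one gene of the list to rise, from 323 and 311 cpm to 426 and 375 cpm (log2 fold change 0.34, SE 0.08, adjusted p = 0.0032). Together the list took up 4.54% and 4.6004% of the counts at control and 2.45% and 2.15% with ABA.

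In chlorophyll synthesis the light-dependent protochlorophyllide reductases fell by different amounts. PORB (AT4G27440), an enzyme of light-grown leaves, had 1795 and 2081 cpm at control and 741 and 667 cpm with ABA (log2 fold change -1.46, SE 0.10, adjusted p = 4.64e-07). PORA (AT5G54190), which is known from seedlings greening after darkness, had 14.1 and 23.0 cpm at control and 0.890 and 1.05 cpm with ABA (log2 fold change -4.24, SE 0.29, adjusted p = 2.88e-07). Both genes were named under the rule that the libraries of the groups do not overlap. GUN5 (AT5G13630), the large subunit of the magnesium chelatase at the branch to chlorophyll, fell from 1469 and 1737 cpm to 1046 and 866 cpm (log2 fold change -0.75, SE 0.12, adjusted p = 2.34e-04). HEMA1 (AT1G58290), which catalyses the first committed step, was called lower at -0.38 (SE 0.15, adjusted p = 0.049), but its control libraries were far apart at 223 and 348 cpm, the first lower than one ABA library at 225 cpm, and without control replicate 2 the change was -0.02 (adjusted p = 0.857). The one gene not called was GUN4, which stimulates the chelatase, at 0.00 (SE 0.12, adjusted p = 0.985).

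Genes for chlorophyll breakdown and senescence changed the other way. Of 12 tested genes 11 rose and none fell, with a median log2 fold change of 2.00. NYE1 (AT4G22920), which removes magnesium from chlorophyll, had 14.7 and 12.0 cpm at control and 52.3 and 67.9 cpm with ABA, with both ABA libraries above both controls (log2 fold change 2.18, SE 0.13, adjusted p = 1.52e-07). The senescence regulators of the NAC family moved most: NAC6 (AT5G39610), also known as ORE1, had 1.11 and 0.940 cpm at control and 23.4 and 37.2 cpm with ABA (log2 fold change 4.89, SE 0.26, adjusted p = 5.17e-08), and NAP (AT1G69490) had 2.33 and 2.25 cpm at control and 49.9 and 76.8 cpm with ABA (log2 fold change 4.79, SE 0.28, adjusted p = 1.11e-07). WRKY53, a senescence regulator of another family, was not called at 0.30 (SE 0.25, adjusted p = 0.305), and SAG12, a late senescence protease, did not pass the filter on low counts.

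Within the photosystems the antenna genes did not move together. CAB3 (AT1G29910), a main light-harvesting protein of photosystem II, had 7258 and 8075 cpm at control and 4228 and 3326 cpm with ABA (log2 fold change -1.02, SE 0.14, adjusted p = 7.39e-05), while LHB1B1 (AT2G34430), from the same family, had 5685 and 6254 cpm at control and 11257 and 9341 cpm with ABA (log2 fold change 0.79, SE 0.12, adjusted p = 1.69e-04). The ABA libraries lay below the controls in the first and above them in the second. These 2 genes have near-identical copies, so reads may be divided between them. Among the minor antenna proteins, LHCB5 (AT4G10340) had 6282 and 7095 cpm at control and 4401 and 3824 cpm with ABA (log2 fold change -0.70, SE 0.11, adjusted p = 1.60e-04), and LHCB6 (AT1G15820) had 5105 and 5700.4 cpm at control and 3585 and 3152 cpm with ABA (log2 fold change -0.68, SE 0.10, adjusted p = 1.61e-04). LHCB4.2 (AT3G08940) fell by a smaller amount, -0.44 (SE 0.09, adjusted p = 0.0018). LHCB2.3 (AT3G27690) was not called at -0.17 (SE 0.17, adjusted p = 0.403), with overlapping libraries and another locus over 0.406 of its exon bases, and Lhca5 (AT1G45474) was called higher at 0.25 (SE 0.08, adjusted p = 0.0215), a call lost without control replicate 1 or either ABA library.

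In photosystem II, PSB28 (AT4G28660), an assembly factor, had 146 and 146 cpm at control and 72.6 and 58.6 cpm with ABA (log2 fold change -1.16, SE 0.09, adjusted p = 1.24e-06). PSB27 (AT1G03600), another assembly factor, had 328 and 346 cpm at control and 241 and 191 cpm with ABA (log2 fold change -0.64, SE 0.12, adjusted p = 9.48e-04). Among other subunits, PSBO1 (AT5G66570) of the oxygen-evolving complex was not called at -0.22 (SE 0.10, adjusted p = 0.0878), and NPQ4 (AT1G44575), needed to dissipate excess light as heat, was called at -0.23 (SE 0.08, adjusted p = 0.0239), a call lost without control replicate 2 or ABA replicate 2. The largest falls of the electron transport list were ferredoxin FED A (AT1G60950) at 817 and 1041 cpm at control and 483 and 439.5 cpm with ABA (log2 fold change -1.01, SE 0.12, adjusted p = 2.99e-05) and plastocyanin DRT112 (AT1G20340) at 3181 and 3375 cpm at control and 1813 and 1512 cpm with ABA (log2 fold change -0.98, SE 0.10, adjusted p = 9.78e-06). Lhca6 (AT1G19150), which joins photosystem I to a larger complex, changed by -0.999 (SE 0.10, adjusted p = 7.68e-06). Without ABA replicate 2, 5 genes of the photosystem II core were called lower, and 8 of photosystem I and electron transport, or 9 without control replicate 2. Total-count scaling gave 14 falls and 1 rise in the antenna, with medians of -0.37 there and -0.38 in the photosystem II core. The antenna median was -0.39 without ABA replicate 1 and -0.13 without ABA replicate 2.

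In photorespiration, which salvages the products of Rubisco's reaction with oxygen, 7 of 13 genes fell and 3 rose. Glycolate oxidase GOX2 (AT3G14415) fell from 771 and 772 cpm to 401 and 354 cpm (log2 fold change -1.03, SE 0.08, adjusted p = 7.18e-07), and the glycine cleavage T-protein AT1G11860 fell from 808 and 876 cpm to 472 and 404 cpm (log2 fold change -0.94, SE 0.10, adjusted p = 9.47e-06). The peroxisomal catalase CAT2 (AT4G35090) rose from 467 and 433 cpm to 662 and 551 cpm (log2 fold change 0.43, SE 0.10, adjusted p = 0.00263). GLDP1 (AT4G33010), the P-protein of glycine cleavage, was called higher at 0.28 (SE 0.10, adjusted p = 0.0297), and its call was lost without either control library or without ABA replicate 1. Under total-count scaling, or without control replicate 1, 1 gene of the list was called higher.

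The mesophyll is the leaf's main photosynthetic tissue. Of 5 mesophyll markers, 4 of which are members of the lists above, 4 fell and 1 was not called, none was at 0, and their summed level was 34251 and 35971 cpm at control and 22796 and 19032 cpm with ABA. The part of any shift between tissues in these results was not tested.

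**Figure D2:**
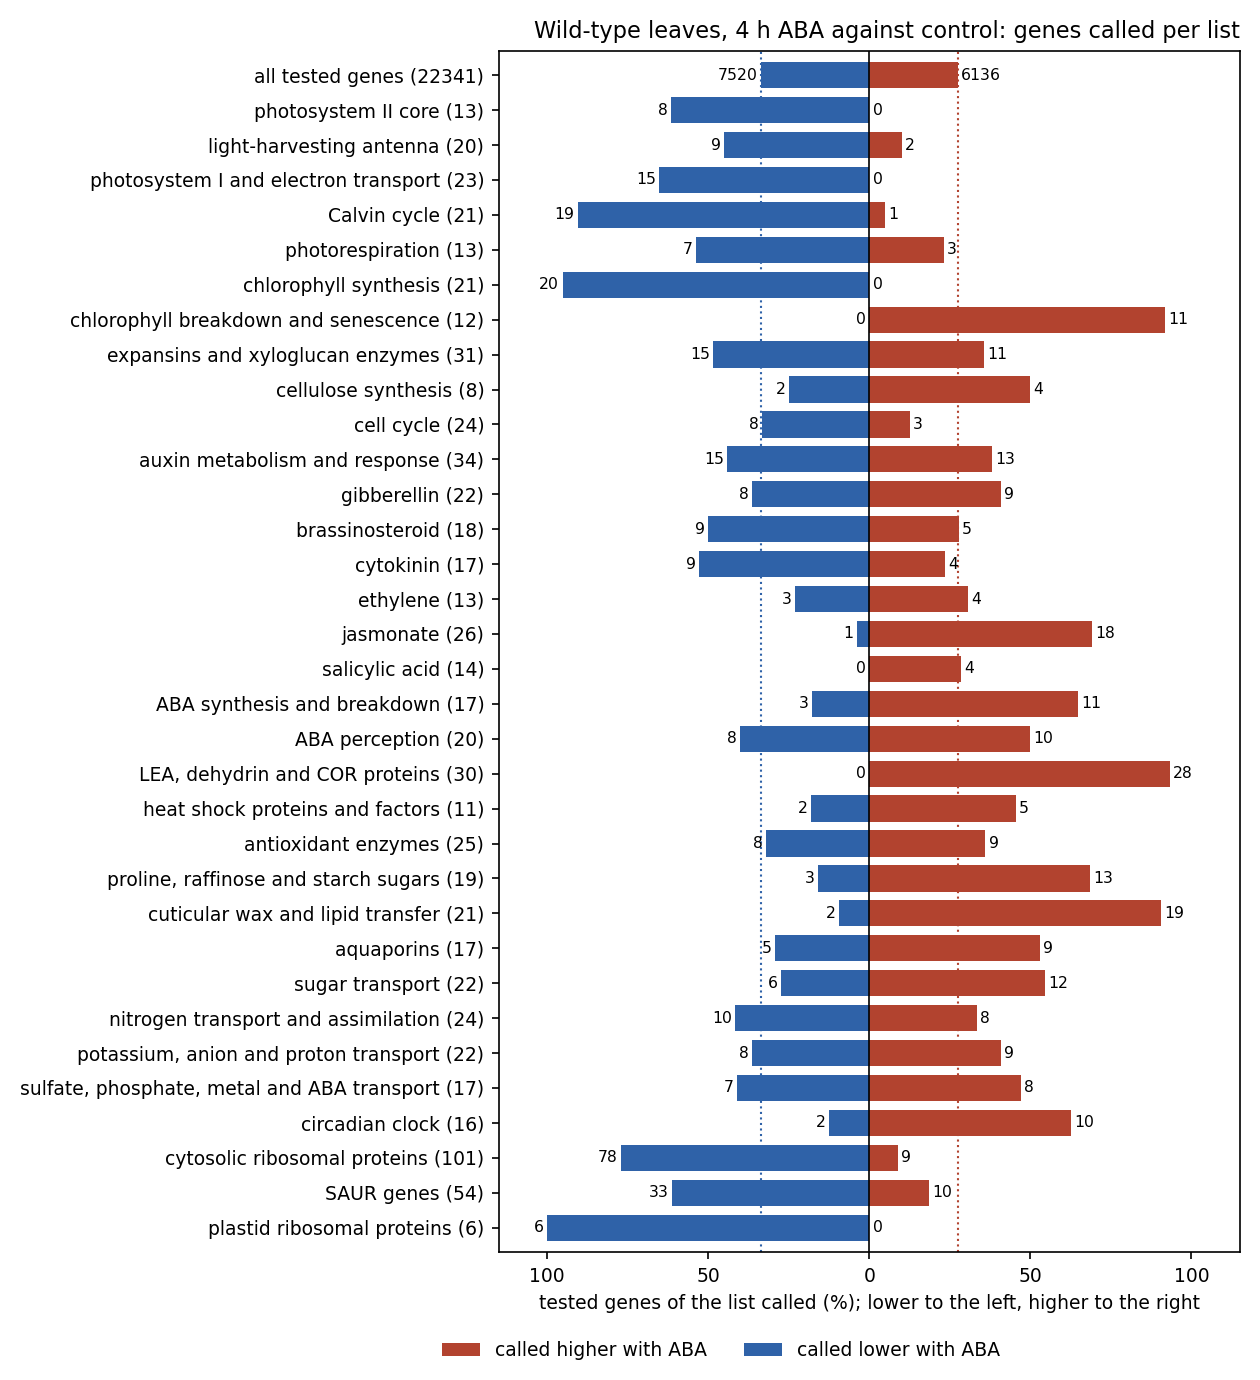
Percent of the tested genes of each list called lower (left, blue) and higher (right, red) with ABA in wild-type leaves, with the number of called genes at each bar and the number tested in brackets. Dotted lines carry down the shares of all tested genes, 33.7% lower and 27.5% higher. Plastid ribosomal proteins (6 of 6 lower) and the protective LEA, dehydrin and COR proteins (28 of 30 higher) stand at the 2 ends. In chlorophyll synthesis 20 of 21 were lower.

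Growth genes changed in both directions within families. Of 31 tested expansins and xyloglucan enzymes, which loosen or remodel the cell wall, 15 fell and 11 rose, and 12 and 9 of these did so by at least 2-fold. The median log2 fold change was -0.20, or 0.03 without control replicate 1, -0.42 without control replicate 2, -0.46 without ABA replicate 1 and -0.31 without ABA replicate 2, and single genes ranged widely. EXPA8 had 25.9 and 37.1 cpm at control and 0.0356 and 0 cpm with ABA, which is 2433 counts at control against 1 count with ABA, a ratio of 2203 (95% exact counting interval 395 to 87064). XTH31 (AT3G44990) had 14.0 and 10.7 cpm at control and 0 and 0.0243 cpm with ABA, a ratio of 849 (152 to 33588). These intervals cover counting error only. In the opposite direction, EXPA16 (AT3G55500) had 4.55 and 4.95 cpm at control and 342 and 306 cpm with ABA (log2 fold change 6.09, SE 0.19, adjusted p = 1.01e-09), and the expansin-like EXLA2 (AT4G38400) had 1.86 and 1.21 cpm at control and 32.5 and 23.0 cpm with ABA (log2 fold change 4.18, SE 0.21, adjusted p = 3.54e-08). These 4 genes were named under a rule that required no overlap between the libraries of the groups.

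Cellulose synthesis genes changed little except for one. CESA1 (AT4G32410), a catalytic subunit of the complex that builds the primary wall, had 409 and 371 cpm at control and 865 and 781 cpm with ABA (log2 fold change 1.08, SE 0.09, adjusted p = 1.92e-06). Of the 8 genes 4 rose and 2 fell, but under upper quartile or total-count scaling 2 rose and 4 fell. COB (AT5G60920), a wall protein needed for oriented cellulose, rose by 0.33 (SE 0.07, adjusted p = 0.0018). CESA2 (AT4G39350) at -0.35 (SE 0.10, adjusted p = 0.0125) and CESA5 (AT5G09870) at -0.25 (SE 0.09, adjusted p = 0.0346) were called lower, and neither stayed called without ABA replicate 2. Without control replicate 1 or ABA replicate 2 no gene of the list was called lower, without control replicate 2 or ABA replicate 1, 2 were called higher, and the sign of the list's median, 0.02, turned to -0.11 under total-count scaling.

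Of 24 cell cycle genes 8 fell, 3 rose and 13 were not called, shares below those of all genes for rises and near them for falls. Most were low in these leaves. CYCD3;1 (AT4G34160), a cyclin that promotes entry into division, had 5.78 and 6.93 cpm at control and 3.53 and 2.97 cpm with ABA (log2 fold change -0.98, SE 0.17, adjusted p = 3.497e-04). TSO2 (AT3G27060), a subunit of ribonucleotide reductase, which makes DNA precursors, had 39.2 and 33.1 cpm at control and 25.1 and 17.9 cpm with ABA (log2 fold change -0.76, SE 0.16, adjusted p = 0.00197). KRP2 (AT3G50630), an inhibitor of cyclin-dependent kinases, rose from 6.28 and 7.60 cpm to 9.72 and 11.5 cpm (log2 fold change 0.62, SE 0.13, adjusted p = 0.00163). MCM5 (AT2G07690), part of the replicative helicase, was called higher at 0.49 (SE 0.13, adjusted p = 0.00808), a call lost without ABA replicate 1. The counts were 5 lower without ABA replicate 2 and 1 higher without ABA replicate 1.

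Ribosomal proteins and SAUR proteins, both tied to growth, fell more broadly. Of 101 loci whose product names a cytosolic ribosomal protein 78 fell and 9 rose, with a median log2 fold change of -0.70. Most of these falls were under 2-fold, and 22 exceeded it. AT2G33370, of the L14p/L23e family, had 67.9 and 73.4 cpm at control and 19.9 and 17.7 cpm with ABA (log2 fold change -1.91, SE 0.08, adjusted p = 1.01e-08). AT3G28900, of the L34e superfamily, fell from 43.1 and 43.7 cpm to 15.2 and 14.5 cpm (log2 fold change -1.55, SE 0.08, adjusted p = 3.81e-08), and 0.262 of its exon bases lie in another locus. Both leading rises were products of the L18ae family: AT1G53560 had 17.64 and 17.9 cpm at control and 71.4 and 69.7 cpm with ABA (log2 fold change 1.99, SE 0.09, adjusted p = 1.27e-08), and AT3G14595 had 40.3 and 38.8 cpm at control and 127 and 133 cpm with ABA (log2 fold change 1.71, SE 0.09, adjusted p = 6.02e-08). The list was matched by product name only, and products of this family may not be ribosomal subunits. All 6 tested plastid ribosomal protein genes fell, from PSRP5 (AT3G56910) at -0.91 (SE 0.12, adjusted p = 7.43e-05), which shares 0.364 of its exon bases with another locus, and RPL3P (AT3G17465) at -0.83 (SE 0.09, adjusted p = 1.43e-05) to smaller changes.

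Of 54 tested SAUR genes, small auxin-responsive genes many of which promote cell expansion, 33 fell, each by at least 2-fold, and 10 rose. Their median log2 fold change was -2.05, or -1.58 with the 9 genes that had at most 3 counts per library in 1 group set at their bound. AT4G38860 had 53.4 and 55.5 cpm at control and 4.52 and 1.92 cpm with ABA (log2 fold change -4.15, SE 0.29, adjusted p = 3.54e-07). SAUR63 (AT1G29440) had 6.36 and 6.56 cpm at control and 0.392 and 0.413 cpm with ABA (log2 fold change -3.99, SE 0.31, adjusted p = 7.77e-07), with 0.256 of its exon bases in another locus. Against the family's direction, AT5G53590 had 8.30 and 7.37 cpm at control and 36.7 and 40.03 cpm with ABA (log2 fold change 2.29, SE 0.12, adjusted p = 5.70e-08) and SAUR36 (AT2G45210), which is known to promote leaf senescence, had 2.14 and 2.05 cpm at control and 6.37 and 8.34 cpm with ABA (log2 fold change 1.82, SE 0.16, adjusted p = 2.13e-06). With a minimum mean of 50 counts, 30 SAUR genes were tested, of which 19 were called lower.

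**Figure D3:**
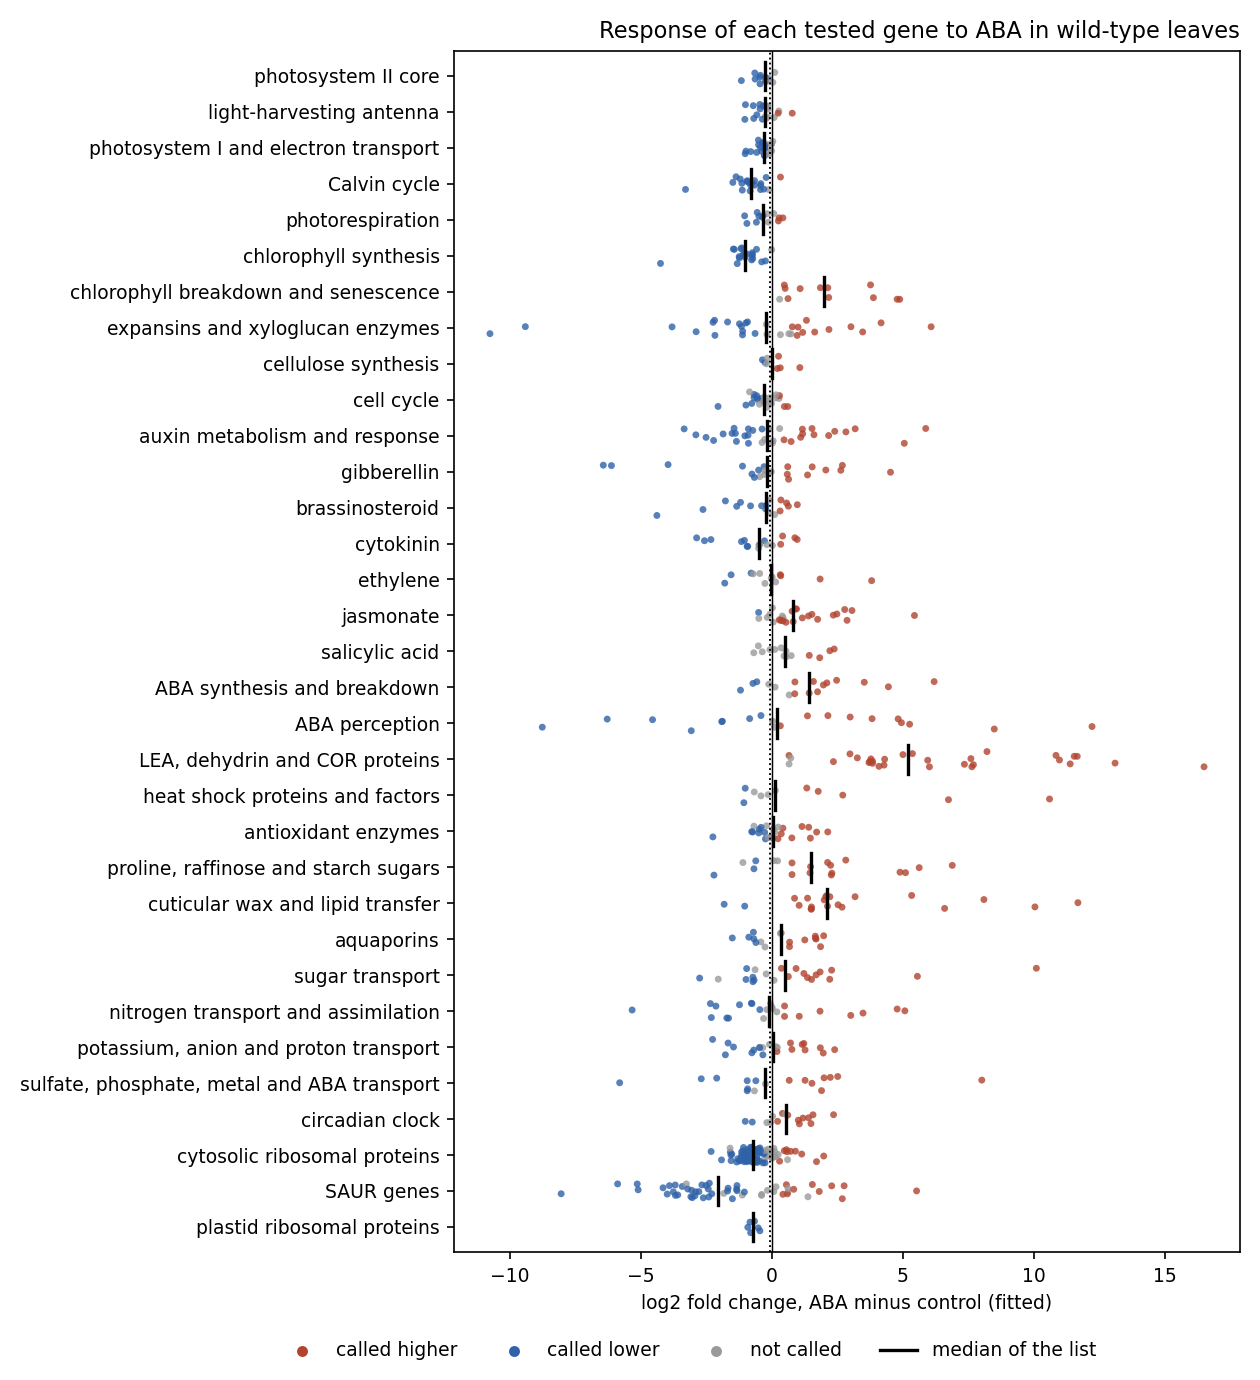
Fitted log2 fold change (ABA minus control) of every tested gene in each list, one point per gene, red where called higher, blue where called lower and grey where not called. Black bars are list medians and the dotted line is the median of all genes, -0.08. Extreme values of genes with no or few counts in one group depend on the prior count of the fit. The LEA, dehydrin and COR list lies to the right and the SAUR list mostly to the left, while the expansin and ABA perception lists spread to both sides.

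Hormone genes were examined next, beginning with ABA itself. Of 17 tested genes of ABA synthesis and breakdown 11 rose and 3 fell. All 4 ABA 8'-hydroxylases (the CYP707A enzymes that inactivate ABA) were among the risen. CYP707A2 (AT2G29090) had 1.25 and 0.866 cpm at control and 90.3 and 65.1 cpm with ABA (log2 fold change 6.20, SE 0.25, adjusted p = 7.51e-09), and CYP707A1 (AT4G19230) had 2.78 and 2.87 cpm at control and 55.9 and 68.3 cpm with ABA (log2 fold change 4.46, SE 0.14, adjusted p = 1.01e-09). CYP707A3 (AT5G45340) had 8.19 and 7.20 cpm at control and 38.4 and 47.3 cpm with ABA (log2 fold change 2.48, SE 0.15, adjusted p = 1.35e-07). Of 9 tested synthesis genes 5 rose and 2 fell. NCED3 (AT3G14440), whose enzyme cleaves the carotenoid precursor and limits the rate of synthesis under drought, had 9.39 and 11.1 cpm at control and 35.04 and 53.4 cpm with ABA (log2 fold change 2.11, SE 0.24, adjusted p = 1.58e-05). ABA2 (AT1G52340), the next enzyme in the cytosol, went the other way, from 16.1 and 19.3 cpm to 8.15 and 7.42 cpm (log2 fold change -1.19, SE 0.11, adjusted p = 2.45e-06), though 0.397 of its exon bases lie in another locus. BETA-OHASE 1 (AT4G25700), a carotenoid hydroxylase upstream, fell from 28.1 and 23.5 cpm to 16.6 and 14.9 cpm (log2 fold change -0.71, SE 0.12, adjusted p = 2.56e-04).

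In ABA perception 10 of 20 tested genes rose and 8 fell. Of 9 receptors 7 fell and 1 rose, and all 8 tested type 2C phosphatases rose. The rise among receptors was not called without any 1 of the 4 leaf libraries or under total-count or upper quartile scaling. The receptor PYL4 (AT2G38310) had 90.3 and 83.7 cpm at control and 1.32 and 0.973 cpm with ABA (log2 fold change -6.28, SE 0.21, adjusted p = 2.08e-09), so the ABA libraries held near 1 cpm of a gene that stood above 80 cpm in both controls. PYL6 had 14.7 and 13.5 cpm at control and 0 and 0.0486 cpm with ABA, a ratio of 487 between control and ABA (95% exact counting interval 135 to 4028). The phosphatase HAI1 had 0.24996 and 0.0495 cpm at control and 700.1 and 723 cpm with ABA (log2 fold change 12.23, SE 0.28, adjusted p = 2.26e-10), a fitted change that rests on 9 and 2 counts in the control libraries and was 13.702 without the first and 11.45 without the second. HAI2 had 1.06 and 0.421 cpm at control and 261 and 265 cpm with ABA (log2 fold change 8.50, SE 0.23, adjusted p = 4.63e-10). In each of these 4 genes the groups were far apart, and the naming rule required that they not overlap.

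Jasmonate, a hormone of wounding and defence, had mostly rising genes. Of 26 genes 18 rose and 1 fell, with a median log2 fold change of 0.80. LOX2 (AT3G45140), the plastid lipoxygenase that begins jasmonate synthesis, had 2070.3 and 1760.3 cpm at control and 8841 and 10758 cpm with ABA (log2 fold change 2.36, SE 0.24, adjusted p = 6.64e-06). The vegetative storage proteins, classic jasmonate-responsive genes, rose: VSP2 (AT5G24770) had 34.6 and 56.3 cpm at control and 1654 and 2332 cpm with ABA (log2 fold change 5.45, SE 0.63, adjusted p = 1.87e-05), and VSP1 (AT5G24780) had 19.5 and 26.5 cpm at control and 129 and 209 cpm with ABA (log2 fold change 2.88, SE 0.53, adjusted p = 6.93e-04). CYP94C1 (AT2G27690), which oxidises the active hormone, was the one gene called lower, at -0.50 (SE 0.17, adjusted p = 0.0277), and the call was lost without control replicate 1 or either ABA library. The list took up 0.422% and 0.361% of the counts at control and 1.18% and 1.47% with ABA. Of 7 markers of wounding and touch 4 rose and 2 fell (2 and 1 without ABA replicate 2), none was at 0 and their summed level was 399 and 404 cpm at control and 263 and 255 cpm with ABA, lower with ABA. Their part in the jasmonate result was not tested.

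Of 14 salicylic acid genes 4 rose, a share near that of all genes, and none fell. With only the libraries of the groups compared, 9 were called higher and 1 lower, and under upper quartile or total-count scaling 3 and 1. PR1 (AT2G14610), the classic marker of this pathway, had 61.4 and 29.9 cpm at control and 84.8 and 68.4 cpm with ABA and was not called (log2 fold change 0.75, SE 0.76, adjusted p = 0.416). FMO1 (AT1G19250) and ALD1 (AT2G13810), enzymes that make the defence signal N-hydroxypipecolic acid, were called at 2.39 (SE 0.53, adjusted p = 0.00234) and 2.22 (SE 0.58, adjusted p = 0.00616). Their control libraries differed widely, with 1.72 and 0.297 cpm for FMO1 and 2.28 and 0.767 cpm for ALD1. Without control replicate 1 the change of FMO1 was 4.11 and without control replicate 2 it was 1.59. Without control replicate 2 the change of ALD1 was 1.62 (adjusted p = 0.0589), and 2 genes of the list were called higher.

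Of 34 tested auxin genes 13 rose and 15 fell. The 4 tested GH3 genes and the 4 hydrolases of auxin conjugates rose (3 GH3 genes without control replicate 2 or ABA replicate 2), and 5 of 6 carriers fell, with 1 not called. DFL1 (AT5G54510), a GH3 enzyme that joins auxin to amino acids and so inactivates it, had 1.92 and 1.83 cpm at control and 67.8 and 57.8 cpm with ABA (log2 fold change 5.06, SE 0.13, adjusted p = 2.91e-10). ILL5 (AT1G51780), a homologue of enzymes that split such conjugates, had 0.139 and 0.148 cpm at control and 6.94 and 10.4 cpm with ABA (log2 fold change 5.88, SE 0.53, adjusted p = 2.65e-06). The efflux carrier PIN4 (AT2G01420) had 103 and 108 cpm at control and 19.2 and 17.995 cpm with ABA (log2 fold change -2.50, SE 0.08, adjusted p = 2.05e-09) and the influx carrier LAX3 (AT1G77690) had 6.03 and 6.53 cpm at control and 0.961 and 0.754 cpm with ABA (log2 fold change -2.89, SE 0.18, adjusted p = 1.69e-07). IAA19 (AT3G15540), an early auxin-response repressor linked to cell elongation, fell from 8.28 and 8.86 cpm to 5.34 and 5.08 cpm (log2 fold change -0.72, SE 0.19, adjusted p = 0.00729).

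Gibberellin promotes stem and leaf growth. Of 22 tested genes 9 rose and 8 fell. GA20OX1 (AT4G25420), an enzyme late in synthesis, had 3.499 and 4.26 cpm at control and 0.320 and 0.195 cpm with ABA (log2 fold change -3.95, SE 0.31, adjusted p = 9.93e-07). GA3OX1 (AT1G15550), which makes the active hormone, had 10.4 and 12.5 cpm at control and 5.27 and 5.33 cpm with ABA (log2 fold change -1.11, SE 0.18, adjusted p = 2.40e-04), and KAO2 (AT2G32440), earlier in the path, changed by -0.75 (SE 0.11, adjusted p = 1.17e-04). On the signalling side the repressor RGL3 (AT5G17490), a DELLA protein, had 3.33 and 3.54 cpm at control and 22.4 and 22.3 cpm with ABA (log2 fold change 2.70, SE 0.15, adjusted p = 6.41e-08), and the receptor GID1B (AT3G63010) had 6.80 and 5.49 cpm at control and 23.4 and 28.0 cpm with ABA (log2 fold change 2.07, SE 0.13, adjusted p = 1.43e-07).

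Of 18 brassinosteroid genes 9 fell and 5 rose, with 6 and 5 under RLE scaling and 11 and 3 under total-count scaling. DWF1 (AT3G19820), an enzyme of sterol synthesis before the hormone's own branch, had 156 and 171 cpm at control and 74.9 and 55.1 cpm with ABA (log2 fold change -1.33, SE 0.16, adjusted p = 2.14e-05), and CYP90D1 (AT3G13730), a cytochrome P450 of the branch itself, had 8.03 and 6.83 cpm at control and 2.39 and 2.02 cpm with ABA (log2 fold change -1.76, SE 0.15, adjusted p = 1.94e-06). DWF4 (AT3G50660), which carries out a rate-limiting step, had 10.1 and 11.5 cpm at control and 12.2 and 11.3 cpm with ABA and was not called (log2 fold change 0.12, SE 0.10, adjusted p = 0.338), and its sign turned under total-count scaling. ROT3 (AT4G36380), a close relative of CYP90D1, rose from 3.22 and 2.55 cpm to 5.73 and 5.64 cpm (log2 fold change 0.98, SE 0.21, adjusted p = 0.00194), and BES1 (AT1G19350), a transcription factor of the pathway with 0.336 of its exon bases in another locus, rose by 0.64 (SE 0.10, adjusted p = 1.81e-04).

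Of 17 tested cytokinin genes 9 fell and 4 rose. The synthesis gene IPT3 (AT3G63110) had 37.2 and 33.5 cpm at control and 5.02 and 8.88 cpm with ABA (log2 fold change -2.32, SE 0.20, adjusted p = 1.86e-06). The oxidases that break cytokinin down went both ways: CKX4 (AT4G29740) had 18.9 and 19.1 cpm at control and 2.60 and 2.63 cpm with ABA (log2 fold change -2.86, SE 0.17, adjusted p = 1.05e-07), while CKX7 (AT5G21482) rose from 16.5 and 15.2 cpm to 31.7 and 27.0 cpm (log2 fold change 0.89, SE 0.12, adjusted p = 7.85e-05) and CKX5 (AT1G75450) rose from 10.2 and 10.9 cpm to 22.7 and 18.9 cpm (log2 fold change 0.98, SE 0.14, adjusted p = 9.26e-05), with 0.288 of the exon bases of CKX5 in another locus.

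Of 13 ethylene genes 4 rose and 3 fell, a share near that of all genes for rises and below it for falls. ACS2 (AT1G01480), an enzyme of the rate-limiting step of synthesis, had 1.11 and 1.262 cpm at control and 11.9 and 21.5 cpm with ABA (log2 fold change 3.82, SE 0.34, adjusted p = 2.58e-06). The transcription factor EIN3 (AT3G20770) rose by 0.35 (SE 0.07, adjusted p = 0.0013). Under total-count scaling 5 genes were called lower, with DESeq2 or without ABA replicate 2, 1 gene was, and without control replicate 2, 2 were called higher.

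Among genes of protective proteins, those of the first list rose in nearly every case, while heat shock and antioxidant genes, described below, went both ways. Of 30 tested genes of late embryogenesis abundant (LEA) proteins, dehydrins and cold-regulated (COR) proteins, which stabilise membranes and other proteins in drying cells, 28 rose and none fell, 27 of them by at least 2-fold. The median log2 fold change was 5.19, or 4.303 with the 11 genes at no more than 3 counts per library in 1 group set at their bound. Together they took up 0.486% and 0.453% of the counts at control and 4.72% and 4.92% with ABA. The 5 genes with the largest gain in cpm in the whole table were the jasmonate gene LOX2 and 4 members of this list. COR15A (AT2G42540), a chloroplast stromal protein that stabilises membranes, had 347 and 328 cpm at control and 10854 and 10955 cpm with ABA (log2 fold change 5.01, SE 0.29, adjusted p = 8.29e-08). LTI78 (AT5G52310), also known as RD29A, had 517 and 438 cpm at control and 9406 and 9589.9 cpm with ABA (log2 fold change 4.31, SE 0.16, adjusted p = 4.43e-09), and the dehydrin COR47 (AT1G20440) had 446 and 381 cpm at control and 5664 and 5785 cpm with ABA (log2 fold change 3.79, SE 0.12, adjusted p = 1.71e-09). KIN2 (AT5G15970), which has a near-identical neighbour, KIN1, had 675 and 661 cpm at control and 6176 and 6728 cpm with ABA (log2 fold change 3.27, SE 0.15, adjusted p = 2.04e-08).

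Some protective genes had no counts at all in either control library. LEA7 had 0 counts in both, against 369 and 346 cpm in the ABA libraries, which is at least 4541-fold higher than a floor of 3 counts per library. AT3G17520, another LEA family protein, had 0 counts and then 32.3 and 35.5 cpm, at least 431-fold higher. The dehydrin RAB18 (AT5G66400) had 8.67 and 6.16 cpm at control and 1449.7 and 1433 cpm with ABA (log2 fold change 7.61, SE 0.17, adjusted p = 1.85e-10). Its upstream window holds 3 ACGTG cores but lies wholly in another annotated gene.

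Heat shock genes were mixed and low. Of 11 tested genes 5 rose and 2 fell. The rises were led by transcription factors: HSFA6B (AT3G22830) had 0 counts in both control libraries against 6.09 and 5.91 cpm in the ABA libraries, which is at least 76.2-fold higher than the floor, and HSFA6A (AT5G43840) had 0.0833 and 0.0742 cpm at control and 6.77 and 10.8 cpm with ABA, a ratio of 117 (95% exact counting interval 53.4 to 320). The disaggregating chaperone HSP101 (AT1G74310) fell from 7.61 and 7.67 cpm to 3.88 and 3.48 cpm (log2 fold change -1.06, SE 0.13, adjusted p = 3.26e-05). The median log2 fold change of the list was 0.14, or 0.88 without control replicate 1 and 0.12 without control replicate 2. With a minimum mean of 50 counts, 8 genes were tested, of which 3 were called higher.

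Antioxidant enzymes were evenly divided, with 9 of 25 genes risen and 8 fallen and a median of 0.06, which turned to -0.08 under total-count scaling. DHAR1 (AT1G19570), which regenerates ascorbate, had 235 and 221 cpm at control and 907 and 1106 cpm with ABA (log2 fold change 2.14, SE 0.27, adjusted p = 3.74e-05). VTE1 (AT4G32770), an enzyme of vitamin E synthesis, had 25.4 and 24.2 cpm at control and 82.7 and 80.6 cpm with ABA (log2 fold change 1.72, SE 0.12, adjusted p = 3.31e-07). The chloroplast superoxide dismutase FSD3 (AT5G23310) had 19.7 and 23.5 cpm at control and 4.95 and 4.26 cpm with ABA (log2 fold change -2.24, SE 0.16, adjusted p = 5.30e-07), and VTC2 (AT4G26850), an early enzyme of ascorbate synthesis, fell from 308 and 264 cpm to 183 and 155 cpm (log2 fold change -0.76, SE 0.14, adjusted p = 6.52e-04). Without ABA replicate 2, 5 genes of the list were called lower.

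Genes for protective metabolites mostly rose. Of 19 tested genes of proline, raffinose and starch metabolism 13 rose and 3 fell, with a median of 1.49. P5CS1 (AT2G39800), the enzyme that limits proline synthesis, had 46.9 and 65.9 cpm at control and 2585 and 3019.5 cpm with ABA (log2 fold change 5.63, SE 0.22, adjusted p = 5.51e-09), whereas P5CR (AT5G14800), the next and last step, fell from 28.3 and 26.4 cpm to 16.7 and 17.5 cpm (log2 fold change -0.67, SE 0.09, adjusted p = 4.29e-05). Galactinol synthase GolS2 (AT1G56600), which begins raffinose synthesis, had 1.33 and 0.619 cpm at control and 122 and 107 cpm with ABA (log2 fold change 6.89, SE 0.31, adjusted p = 1.40e-08). DIN10 (AT5G20250), of the raffinose synthase family, fell from 291 and 308 cpm to 57.4 and 72.8 cpm (log2 fold change -2.20, SE 0.18, adjusted p = 1.22e-06).

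The cuticle limits water loss from the leaf surface. Of 21 tested genes of wax synthesis and lipid transfer 19 rose and 2 fell, and 18 of the rises were at least 2-fold. LTP3 (AT5G59320), a lipid transfer protein, had 0.333 and 0.173 cpm at control and 211 and 325 cpm with ABA (log2 fold change 10.05, SE 0.41, adjusted p = 7.50e-09), and its neighbour LTP4 (AT5G59310) had 0.0278 and 0 cpm at control and 36.5 and 74.998 cpm with ABA, a ratio of 4538 (95% exact counting interval 814 to 179297). LTP5 (AT3G51600), of the same family, fell from 559 and 553 cpm to 263 and 283 cpm (log2 fold change -1.03, SE 0.07, adjusted p = 3.07e-07), and MYB30 (AT3G28910), a transcription factor that activates wax genes, fell from 17.44 and 18.8 cpm to 5.27 and 5.06 cpm (log2 fold change -1.81, SE 0.10, adjusted p = 5.33e-08). Wax is made in the epidermis. Of 5 epidermis markers 3 rose and 2 fell, none was at 0, and their summed level was 363 and 353 cpm at control and 551 and 566 cpm with ABA, and the part of this in the wax result was not tested.

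**Figure D4:**
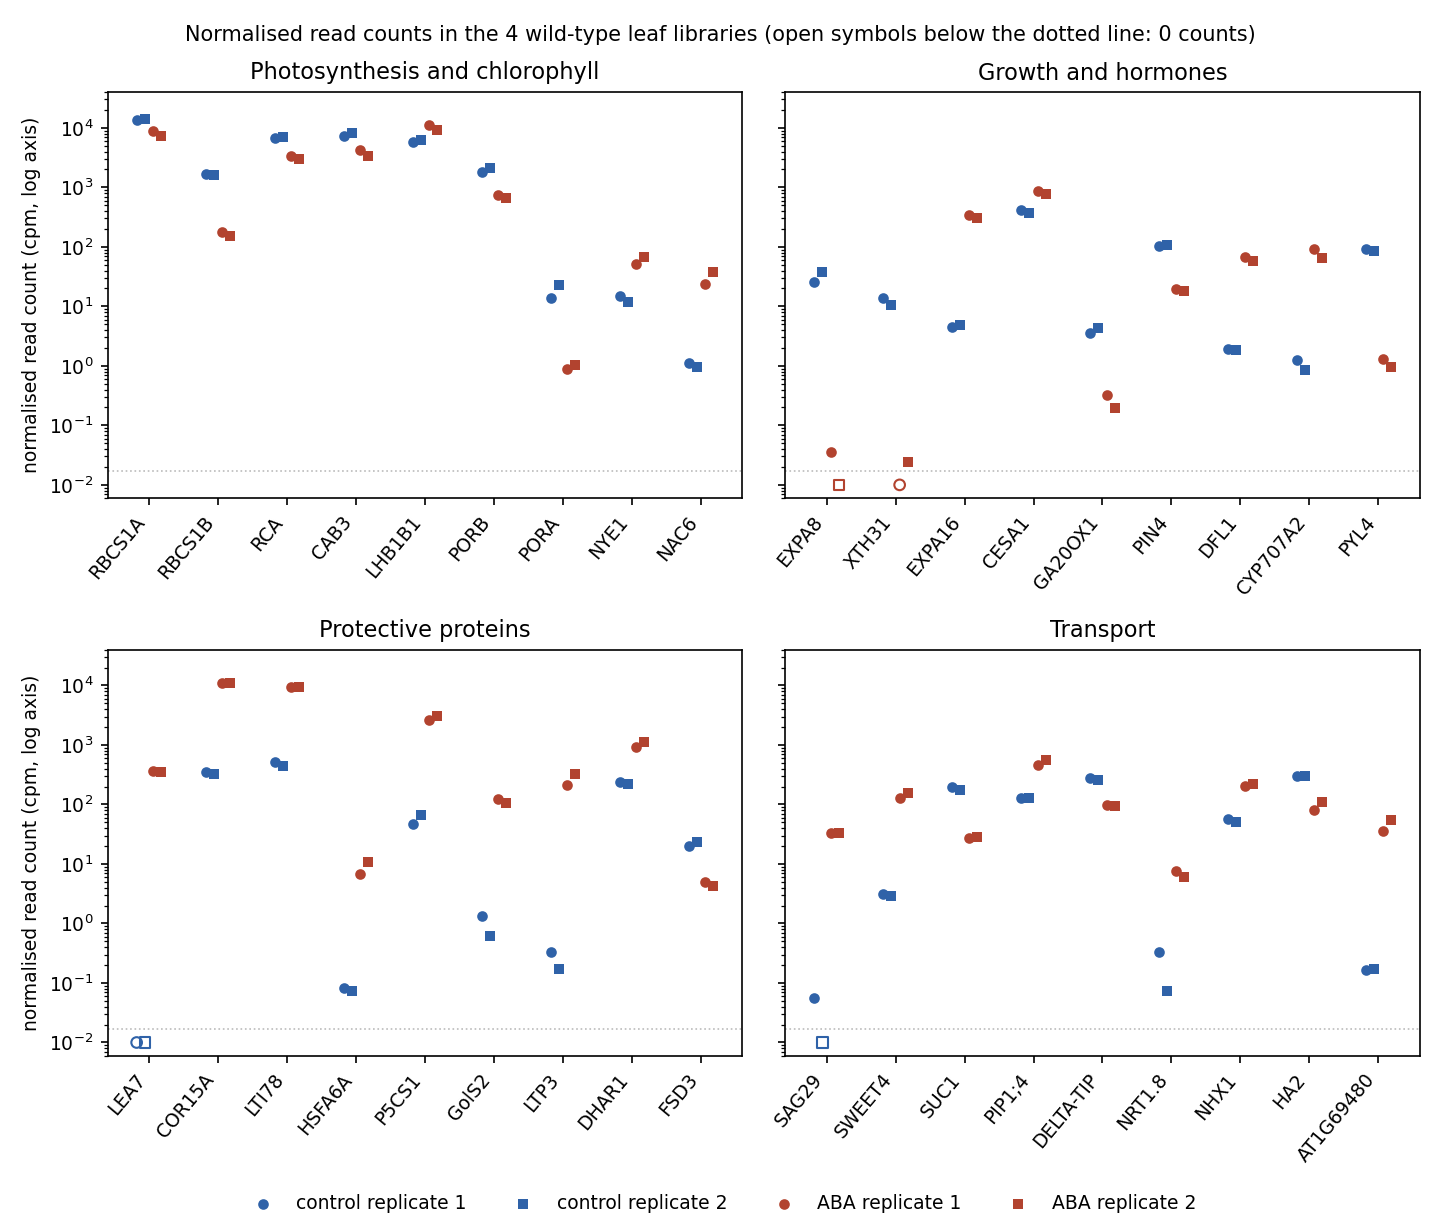
Normalised read counts (cpm, log axis) of 36 genes in each of the 4 wild-type leaf libraries, with control replicates in blue and ABA replicates in red. Open symbols below the dotted line are libraries with 0 counts. In each of the genes shown both ABA libraries lie on the same side of both control libraries, as for LEA7 (0 counts against 369 and 346 cpm) and PYL4 (90.3 and 83.7 against 1.32 and 0.973 cpm). Most of the genes were named under a rule that required this.

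Transport genes rose and fell within each list. Of 17 aquaporins, water channels of the plasma membrane (PIP) and the vacuole (TIP), 9 rose and 5 fell. Among the PIPs, PIP1;4 (AT4G00430) had 129.9 and 127 cpm at control and 461 and 559 cpm with ABA (log2 fold change 1.99, SE 0.11, adjusted p = 8.62e-08) and PIP2A (AT3G53420) had 456 and 411 cpm at control and 1550.5 and 1614 cpm with ABA (log2 fold change 1.87, SE 0.14, adjusted p = 6.27e-07). PIP1B (AT2G45960) went the other way, from 586 and 577 cpm to 326 and 392 cpm (log2 fold change -0.69, SE 0.11, adjusted p = 2.43e-04). The vacuolar DELTA-TIP (AT3G16240) had 283 and 258 cpm at control and 98.2 and 93.0 cpm with ABA (log2 fold change -1.501, SE 0.15, adjusted p = 7.15e-06).

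Of 22 sugar transport genes 12 rose and 6 fell. SAG29 (AT5G13170), a senescence-associated sugar exporter also known as SWEET15, had 0.0555 and 0 cpm at control and 32.9 and 33.3 cpm with ABA, a ratio of 1265 (95% exact counting interval 350 to 10455). SWEET4 had 3.14 and 2.90 cpm at control and 129 and 156 cpm with ABA (log2 fold change 5.56, SE 0.15, adjusted p = 3.79e-10). The sucrose importer SUC1 (AT1G71880) had 196 and 177 cpm at control and 27.1 and 28.5 cpm with ABA (log2 fold change -2.75, SE 0.15, adjusted p = 7.43e-08), and the hexose importer STP1 (AT1G11260) fell from 123 and 126 cpm to 64.4 and 62.2 cpm (log2 fold change -0.98, SE 0.13, adjusted p = 6.15e-05). SWEET11 (AT3G48740), which exports sucrose towards the phloem, fell from 404 and 397 cpm to 233 and 255 cpm (log2 fold change -0.71, SE 0.08, adjusted p = 1.15e-05). Of 6 vein markers 2 rose and 2 fell (1 rose under total-count scaling or without any 1 of the 4 leaf libraries), none was at 0, and their summed level was 921 and 912 cpm at control and 1148 and 1106 cpm with ABA. The set includes SUC2, itself a sucrose transporter. Whether the marker sum bears on the sugar result was not tested.

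In nitrogen transport and assimilation 8 of 24 genes rose and 10 fell. NRT1.8 (AT4G21680), known for taking nitrate back out of the xylem sap, had 0.333 and 0.0742 cpm at control and 7.55 and 6.15 cpm with ABA (log2 fold change 5.09, SE 0.38, adjusted p = 6.78e-07). BAC2 (AT1G79900), a mitochondrial carrier of basic amino acids, had 0.444 and 0.544 cpm at control and 11.7 and 15.9 cpm with ABA (log2 fold change 4.79, SE 0.25, adjusted p = 4.90e-08). Of 10 assimilation genes 6 fell and 1 rose, or 5 and 2 without control replicate 1. Asparagine synthetase ASN2 (AT5G65010) had 98.7 and 92.0 cpm at control and 19.4 and 18.4 cpm with ABA (log2 fold change -2.34, SE 0.13, adjusted p = 7.06e-08), and glutamine synthetase GLN1;4 (AT5G16570) had 22.3 and 22.3 cpm at control and 4.88 and 4.23 cpm with ABA (log2 fold change -2.30, SE 0.16, adjusted p = 4.62e-07). Nitrate reductase NIA1 (AT1G77760) was called lower at -0.77 (SE 0.24, adjusted p = 0.0174), a call lost without control replicate 1 or ABA replicate 2.

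Of 22 tested genes for potassium, anion and proton transport 9 rose and 8 fell, and the median of 0.04 turned to -0.09 under total-count scaling and -0.07 without ABA replicate 2. ALMT12 (AT4G17970), an anion channel of stomatal closure, had 1.78 and 1.41 cpm at control and 8.94 and 7.98 cpm with ABA (log2 fold change 2.41, SE 0.16, adjusted p = 2.64e-07). GORK (AT5G37500), the outward potassium channel that works with it in guard cells, had 7.28 and 9.38 cpm at control and 18.6 and 20.5 cpm with ABA (log2 fold change 1.23, SE 0.13, adjusted p = 8.51e-06). NHX1 (AT5G27150), which loads cations into the vacuole, had 57.5 and 50.7 cpm at control and 202 and 221 cpm with ABA (log2 fold change 1.97, SE 0.09, adjusted p = 1.99e-08). On the falling side were the potassium channel KT1 (AT2G26650), also known as AKT1, at 13.3 and 12.3 cpm at control and 3.098 and 4.33 cpm with ABA (log2 fold change -1.76, SE 0.14, adjusted p = 1.10e-06) and the proton pump HA2 (AT4G30190) at 302 and 306 cpm at control and 82.1 and 109.7 cpm with ABA (log2 fold change -1.66, SE 0.11, adjusted p = 2.91e-07). Of 6 guard cell markers 4 fell and 2 rose, none was at 0, and their summed level was 102 and 123 cpm at control and 63.1 and 76.8 cpm with ABA. With ABA the median log2 fold change of these markers was -1.14 in leaves and -3.49 within guard cell preparations. The set also includes the channels KAT1 and SLAC1, so its sum does not measure the share of guard cells. The part of guard cells in these leaf values was not tested.

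Among 17 tested genes for sulfate, phosphate, metal and ABA transport 8 rose and 7 fell. AT1G69480, a protein of the EXS family to which phosphate exporters belong, had 0.167 and 0.173 cpm at control and 35.4 and 54.8 cpm with ABA (log2 fold change 8.02, SE 0.32, adjusted p = 6.64e-09). NRAMP3 (AT2G23150), which releases iron and manganese from the vacuole, had 7.42 and 7.47 cpm at control and 39.8 and 45.7 cpm with ABA (log2 fold change 2.52, SE 0.11, adjusted p = 1.08e-08). The high-affinity importers SULTR1;2 (AT1G78000) for sulfate and PHT1;4 (AT2G38940) for phosphate fell, from 9.89 and 12.0 cpm to 1.495 and 1.85 cpm (log2 fold change -2.69, SE 0.19, adjusted p = 4.33e-07) and from 6.30 and 6.80 cpm to 1.32 and 1.702 cpm (log2 fold change -2.10, SE 0.23, adjusted p = 1.48e-05).

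The response of leaves was then set against that of the other plant materials, by testing the difference of the ABA responses (leaf minus the other) in the same fit. The responses of wild-type leaves and guard cell preparations differed for 15.0% of the tested genes and those of wild-type and abf1/2/3/4 leaves for 35.1%. Leaves and guard cells differed in isolation and RNA kit as well as in cell type, which cannot be told apart from the response. Against the mutant, all 21 chlorophyll synthesis genes differed, as did 18 of 21 Calvin cycle genes, 39 of 54 SAUR genes, 20 of 30 LEA, dehydrin and COR genes and 14 of 19 proline, raffinose and starch genes. The median change of chlorophyll synthesis genes was -1.01 in wild-type and 0.04 in mutant leaves, and that of SAUR genes -2.05 and -0.03. Fewer jasmonate genes differed, 6 of 26, and 20 of 101 cytosolic ribosomal protein genes did, whose median was -0.70 in wild-type and -0.64 in mutant leaves. Without control replicate 2, 13 of the ribosomal genes differed.

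Single genes show the same range. PORB changed by -1.46 in wild-type and 0.16 in mutant leaves, a difference of -1.62 (SE 0.15, adjusted p = 1.63e-05). GolS2 changed by 6.89 and 0.48, a difference of 6.41 (SE 0.54, adjusted p = 1.13e-05). LOX2 changed by 2.36 and 2.05, and its difference of 0.31 (SE 0.32, adjusted p = 0.492) did not pass the test. SWEET11, KT1 and LTP5 likewise gave no called difference between the genotypes, with mutant changes of -0.85, -1.84 and -1.02. A difference that missed the threshold does not show that the responses were alike.

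Against guard cell preparations, 62 of 101 cytosolic ribosomal protein genes differed, with medians of -0.70 in leaves and -0.23 in guard cells. This count fell to 29 under total-count scaling. Of 21 chlorophyll synthesis genes 15 differed, and 14 of 21 Calvin cycle genes, against 9 and 5 under that scaling, and RLE scaling gave 9 Calvin cycle genes. Without control replicate 2 the counts were 37, 10 and 3 for the ribosomal, chlorophyll synthesis and Calvin cycle genes, without ABA replicate 2 they were 48, 9 and 4, and without control replicate 1, 7 Calvin cycle genes differed. Of 30 LEA, dehydrin and COR genes 6 differed, and of 21 wax and lipid transfer genes 10. The wax count was the same under RLE, upper quartile and total-count scaling, but lower with any 1 leaf library left out. P5CS1 rose by 5.63 in leaves and 2.58 in guard cells, a difference of 3.05 (SE 0.26, adjusted p = 4.72e-05), and EXPA16 by 6.09 and 3.203, a difference of 2.89 (SE 0.22, adjusted p = 2.70e-05). STP1 fell by less in leaves than in guard cells (-0.98 and -2.56), a difference of 1.58 (SE 0.18, adjusted p = 3.88e-04). For some genes the sign itself was different, as in the plot of 11 genes in 3 plant materials.

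**Figure D5:**
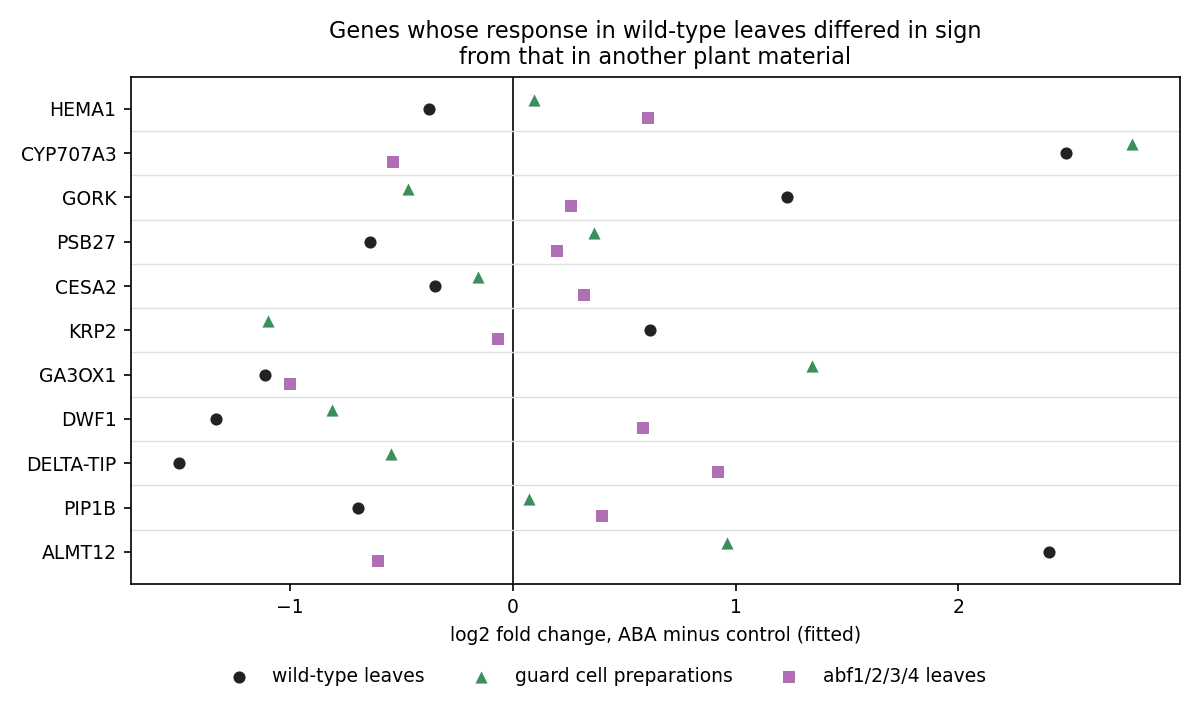
Fitted log2 fold change (ABA minus control) in wild-type leaves (black circles), guard cell preparations (green triangles) and abf1/2/3/4 leaves (violet squares) for 11 named genes called in leaves whose response had the other sign in another material, with a called difference. GORK rose by 1.23 in leaves and stood at -0.47 in guard cell preparations, and DELTA-TIP stood at -1.501 in leaves and at 0.92 in mutant leaves.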

How the data were processed

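The authors deposited unnormalised read counts for each locus, with 1 column per library, and 0 columns belonged to other samples. Per the submitters' processing notes, reads were trimmed with Trim Galore 0.6.5 and cutadapt and counted with featureCounts on the build TAIR10, and per the labels' protocols the libraries were made with a TruSeq V2 kit for mRNA. The aligner, annotation release and strand setting are not given in the sources used here, so reads of overlapping genes cannot be told apart (2738 tested genes shared over 25% of their exon bases with another locus).

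All 12 libraries entered 1 fit (R 4.3.3, edgeR 4.0.16, filterByExpr with a minimum count of 10, TMM scaling, 6 group means, glmQLFit and glmQLFTest, two-sided, Benjamini-Hochberg over 22341 genes), with 6 residual degrees of freedom and a biological coefficient of variation of 8.98%. The SE of a log2 fold change is its size divided by the square root of F. Differences between responses were interaction contrasts of that fit. Of 36796 loci, 36632 matched the reference gene table, which gave symbols, overlaps and upstream windows of 250 bases. ACGTG was searched on both strands and overlapping matches were merged. Tests on simulated data with 50 changed genes per size recovered 40% at 1.5-fold, 80% at 2-fold and 96% at 4-fold in the leaf comparison over 22341 genes. All other genes were left unchanged there, and levels were averages over all 12 libraries. In the data 61.1% of the genes were called, so the adjustment of p was stricter in the simulation. These rates do not give the share of changes found in the data.

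The members and lists (814 genes, 751 tested) were chosen with earlier results of these data known. Genes named were a panel, in each list up to 2 risen and 2 fallen genes with the largest change at 5 cpm or more and no overlap of libraries, and the 5 genes with the largest gain and loss in cpm. GUN4, WRKY53, SAG12 and PAD4 were named after their values were seen, and 1 gene that the rule names is not reported here. The counts by class within the lists of ABA, auxin and nitrogen genes were also formed after the values were seen. Alternatives were DESeq2 1.42.0, scaling by RLE, by upper quartile or by total counts, other filters, only the groups compared, a replicate block, stricter thresholds and leaving out each leaf library. With 2 pairs and no label to that effect, replicate numbers were not taken to pair libraries. With 2 libraries per group, an exact permutation test could not have reached the threshold. The p-values rest on a spread between replicates estimated from all 12 libraries, those of guard cells and of the mutant included.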

Additional observations from a re-analysis of the deposited data

Results flagged for a closer look

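For 11 named genes the ABA response of wild-type leaves and of another plant material went in opposite directions, both called, with a called difference (edgeR's quasi-likelihood test, Benjamini-Hochberg over all genes). Differences are log2 fold changes in wild-type leaves minus those in the other material, and no cause was tested.

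Against guard cell preparations, PSB27 changed by -0.64 in leaves and 0.36 in guard cells (difference -1.01, adjusted p = 0.00433). The TMM factors of the guard cell libraries were 1.240 and 1.240 at control and 1.007 and 1.003 with ABA. A lower factor raises every cpm of its library, so a guard cell change as small as that of PSB27 depends on the scaling. The kinase inhibitor KRP2 changed by 0.62 and -1.10 (difference 1.72, adjusted p = 0.00022). The gibberellin enzyme GA3OX1 changed by -1.11 and 1.34 (difference -2.45, adjusted p = 0.000189). The potassium channel GORK changed by 1.23 and -0.47 (difference 1.701, adjusted p = 0.000144).

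Against abf1/2/3/4 leaves, the chlorophyll synthesis gene HEMA1 changed by -0.38 in wild-type and 0.61 in mutant leaves (difference -0.98, adjusted p = 0.0046), with the wild-type call lost without control replicate 2 or either ABA library. The cellulose synthase CESA2 changed by -0.35 and 0.32 (difference -0.67, adjusted p = 0.0049). Its wild-type call depended on which libraries were kept, with changes of -0.30 without control replicate 1 and -0.26 without ABA replicate 2. The sterol enzyme DWF1 changed by -1.33 and 0.59 (difference -1.92, adjusted p = 7.28e-05). The aquaporins DELTA-TIP and PIP1B changed by -1.501 and -0.69 in wild-type and by 0.92 and 0.40 in mutant leaves, differences of -2.42 (adjusted p = 1.46e-05) and -1.095 (adjusted p = 0.000336). The anion channel ALMT12 changed by 2.41 and -0.61 (difference 3.01, adjusted p = 1.27e-05). CYP707A3, which inactivates ABA, changed by 2.48 and -0.54 (difference 3.02, adjusted p = 4.34e-06).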

How the results depend on the processing

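The number of genes called in the leaf comparison, 13656, lay between 11444 and 12560 when 1 leaf library was left out, and was 12334 with DESeq2 and 5267 with a minimum absolute log2 fold change of 1. Its split depended on the scaling, with 6136 higher and 7520 lower under TMM, 6836 and 6732 under RLE and 4973 and 9209 under total-count scaling. The leaf minus guard cell difference was called for 3362 genes, for 1860 to 2900 with 1 leaf library left out (1860 without control replicate 2 and 1863 without ABA replicate 2), for 1263 at an adjusted p under 0.01 and for 982 with the minimum change. Of these 3362 genes 34.44% had the higher leaf response, and 68.07% of 3451 genes did under total-count scaling. The leaf minus mutant difference was called for 7850 genes, for 5085 at the stricter threshold and for 3244 with the minimum change.

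With the replicate block the 3 counts were 13650, 3377 and 7837, and the block changed the call of 1 of the 140 named genes, HEMA1. Replicate deviations correlated at -0.067 between leaf control and leaf ABA libraries and at -0.21 to 0.26 over all pairs of groups, and no label says that the numbers pair libraries. The LHCB2.3 (AT3G27690) log2 fold change, -0.17, was -0.42 without ABA replicate 1 and 0.0431 without ABA replicate 2, and the DWF4 (AT3G50660) log2 fold change, 0.12, was -0.0173 under total-count scaling. Neither gene was called, and the cause was not tested. Leaving out 1 leaf library ended the calls of NPQ4, HEMA1, NIA1, Lhca5, GLDP1, CESA2, CESA5, MCM5, CYP94C1 and ALD1. Depth limits genes near the floor of 3 counts per library, which was 0.073 to 0.107 cpm in the leaf libraries.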

Other observations

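Genes of the circadian clock, the daily timekeeper of the plant, were mostly called higher. Of 16 genes 10 were higher with ABA and 2 lower, with a median log2 fold change of 0.57, and the median was 0.43 under total-count scaling. ELF4 (AT2G40080), part of the evening complex that represses other clock genes at dusk, had 20.4 and 19.3 cpm at control and 91.9 and 112 cpm with ABA (log2 fold change 2.36, SE 0.12, adjusted p = 4.35e-08). AT5G64170 had 82.8 and 79.0 cpm at control and 242 and 242 cpm with ABA (log2 fold change 1.58, SE 0.07, adjusted p = 1.06e-08). On the falling side were RVE8 (AT3G09600), an activator of evening genes, from 7.17 and 5.91 cpm to 3.77 and 2.80 cpm (log2 fold change -1.01, SE 0.20, adjusted p = 0.00112), and AT3G54500, from 158 and 147 cpm to 98.5 and 84.1 cpm (log2 fold change -0.74, SE 0.10, adjusted p = 8.18e-05). The responses of 4 of the 16 genes differed from those in guard cell preparations (2 without control replicate 2, 6 under total-count scaling) and 10 from those in abf1/2/3/4 leaves.

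Across the whole table the gains in the sum of cpm over called genes were 304226 and the losses 197007. The excess depends on the scaling. The TMM factors were 0.958 and 0.941 at control and 0.856 and 0.873 with ABA, and a lower factor raises every cpm of its library. With at most 3 counts in each control library, 25 genes averaged at least 5 cpm with ABA, against 5 genes the other way round.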
